A study of Mus musculus with 18 samples.

Results

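The genes examined here were 10 transporters, channels and enzymes that carry ions and water across colonocytes, the absorptive cells of the colon: *Slc26a3*, *Slc26a2*, *Slc9a3*, *Scnn1a*, *Aqp8*, *Car1*, *Car2*, *Car4*, *Cftr* and *Slc12a2*. They were chosen by name, and each of the 10 matched 1 of the 47729 genes of the deposited count table. RNA-Seq was done on colon RNA of 9 mice in 3 groups of 3, all on a C57BL/6 background. Naive WT mice (mice 1, 2 and 3) were the untreated controls. WT CAC mice (mice 4, 5 and 6) were given a single dose of azoxymethane (AOM), a carcinogen, at 10 mg/kg and 3 cycles of dextran sulfate sodium (DSS) at 2.5%, an agent that injures the colon epithelium; the pair gives cancer that arises from colitis (CAC). *Cldn2*TG CAC mice (mice 7, 8 and 9) had the same treatment and carried a *Cldn2* transgene under the villin promoter, which is active in the intestinal epithelium. No untreated *Cldn2*TG mice were analysed, so the transgene alone was not examined, and the ages of the mice are not given in the sources used here.

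Water and salt cross the colon by 2 routes. CLDN2, the claudin of the transgene, forms a pore for cations and water in the tight junctions between cells. The genes described here serve the transcellular route. On the luminal side, SLC26A3 exchanges chloride for bicarbonate and SLC9A3 exchanges sodium for protons, which together absorb salt, while SCNN1A is the alpha subunit of the epithelial sodium channel (ENaC) that absorbs sodium in the distal colon. SLC26A2 carries sulfate, AQP8 is a water channel of surface colonocytes, and the carbonic anhydrases make the bicarbonate and protons that the exchangers use: CAR1 and CAR2 inside the cell, CAR4 on its surface. Secretion runs the other way. SLC12A2 loads chloride into the cell from the blood side and CFTR lets it out into the lumen. The comparisons of the 3 groups ask how this machinery is expressed in WT CAC colon and in CAC colon that carries the transgene.

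The results turn on genes that fell in WT CAC mice and were higher again in *Cldn2*TG CAC mice, and the promoters of 3 of them are shown so that their differences in sequence can be seen, with that of *Slc26a3* beside them. Each window is the 300 bases from 250 before to 50 after the gene's start in RefSeq (GRCm38.p6), written 5′ to 3′ on the gene's own strand, which is the plus strand for all 4. They are chr7:123462044-123462343 for *Aqp8*, chr11:84957504-84957803 for *Car4*, chr6:18170437-18170736 for *Cftr* and chr12:31437969-31438268 for *Slc26a3*. Capitals mark every match, on either strand, to 4 short motifs: the TATA box TATAAA, the GC box GGGCGG, the core CATAAA bound by CDX factors, and CAAAGNNCA, in which N is any base, a form of the site of HNF4 factors. In the window of *Cftr*, 3 of the GC boxes overlap one another, and no matches of different motifs overlap.

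Aqp8: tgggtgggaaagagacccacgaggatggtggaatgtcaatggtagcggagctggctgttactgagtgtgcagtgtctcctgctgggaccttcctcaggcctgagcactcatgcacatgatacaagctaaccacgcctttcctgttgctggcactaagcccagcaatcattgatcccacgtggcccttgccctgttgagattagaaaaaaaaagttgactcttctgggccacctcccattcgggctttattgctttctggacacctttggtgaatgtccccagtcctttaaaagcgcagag
Car4: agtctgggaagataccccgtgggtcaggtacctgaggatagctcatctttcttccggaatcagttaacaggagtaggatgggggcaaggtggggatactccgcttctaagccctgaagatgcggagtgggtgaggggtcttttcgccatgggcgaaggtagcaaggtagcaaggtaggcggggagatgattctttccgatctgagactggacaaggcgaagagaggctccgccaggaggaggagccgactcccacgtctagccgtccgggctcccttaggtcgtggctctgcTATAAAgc
Cftr: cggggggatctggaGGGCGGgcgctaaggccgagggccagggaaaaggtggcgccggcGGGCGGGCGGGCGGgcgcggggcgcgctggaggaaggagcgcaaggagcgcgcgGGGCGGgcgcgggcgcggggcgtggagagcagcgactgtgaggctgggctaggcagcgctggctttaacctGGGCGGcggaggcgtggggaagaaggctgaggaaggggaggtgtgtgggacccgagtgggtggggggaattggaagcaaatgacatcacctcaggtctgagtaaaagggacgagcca
Slc26a3: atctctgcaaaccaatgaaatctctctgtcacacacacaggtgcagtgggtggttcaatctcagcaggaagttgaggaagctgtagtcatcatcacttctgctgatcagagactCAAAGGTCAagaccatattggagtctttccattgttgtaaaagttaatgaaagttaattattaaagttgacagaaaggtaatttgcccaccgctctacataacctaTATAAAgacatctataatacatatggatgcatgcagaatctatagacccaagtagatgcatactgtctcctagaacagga

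The windows differ. That of *Cftr* holds 6 GC boxes, that of *Slc26a3* holds a TATA box whose first base lies 30 bases before the RefSeq start and a match to CAAAGNNCA that begins 136 bases before it, and that of *Car4* holds TATAAA only 43 bases after the start. The window of *Aqp8* holds none of the 4 motifs. Among all 32851 windows of the table, 13.6% hold TATAAA, 35.7% GGGCGG, 11.9% CATAAA and 6.36% CAAAGNNCA. A window was found for 5 of the 10 genes, and the fifth, that of *Slc9a3*, holds 3 GC boxes. The RefSeq start of *Slc26a3* lies 47348 bases inside the gene as counted, downstream of the start of the model whose levels are given here, whereas for the other 4 genes both starts were at most 102 bases apart. These matches describe letters in the windows and were not tested as binding sites.

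Each library was sequenced in 2 lanes, which differed by little more than counting noise and were added up, and the gene counts of a mouse totalled 14142711 to 22262546. Levels are given as CPM, counts scaled to 1000000 per library after TMM normalization in edgeR, and a gene is called where edgeR's two-sided quasi-likelihood test gave an adjusted p-value under 0.05 over all genes tested. All 10 genes were tested in each of the 3 comparisons, and their lowest level, 8.58 CPM for *Slc9a3* in mouse 4, is far above the 0.135 to 0.212 CPM that 3 counts stand for. *Xist*, which female cells transcribe, was at 214 CPM in naive WT mouse 1 and at most 0.203 CPM in the other 8 mice. The libraries were taken as separate mice, and p-values measure the spread between them. Epithelial markers were abundant: the summed level of 12 epithelial genes (among them *Epcam*, *Cdh1*, *Krt8* and *Cdx2*) was 23456 to 24812 CPM in naive WT mice. *Cldn2* itself fell from 192, 259 and 245 CPM in naive WT mice to 119, 137 and 132 CPM in WT CAC mice and was 208, 218 and 251 CPM in *Cldn2*TG CAC mice, and its reads from the transgene and from the endogenous gene cannot be told apart.

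In WT CAC colon, 5 of the 10 genes fell against naive WT colon: *Slc26a2*, *Scnn1a*, *Aqp8*, *Car4* and *Cftr*. None rose. Over all 15437 genes tested in this comparison, 6.92% were called lower and 8.04% higher. In *Cldn2*TG CAC colon, 4 of the 5 were higher than in WT CAC colon: *Slc26a2*, *Aqp8*, *Car4* and *Cftr*, against 2.19% of all 14888 genes tested called higher and 7.35% called lower. None of the 10 was called between *Cldn2*TG CAC and naive WT colon, where 3.92% of 15013 genes were called higher and 6.07% lower. The first 2 comparisons share the WT CAC mice, so a low level in those mice enters both, and the values of each comparison are given side by side. The median log2 fold change of the 10 genes was -0.96 for WT CAC against naive WT, where that of all genes tested was 0.02, and 0.93 for *Cldn2*TG CAC against WT CAC, where that of all genes tested was 0.01.

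**Figure D1:**
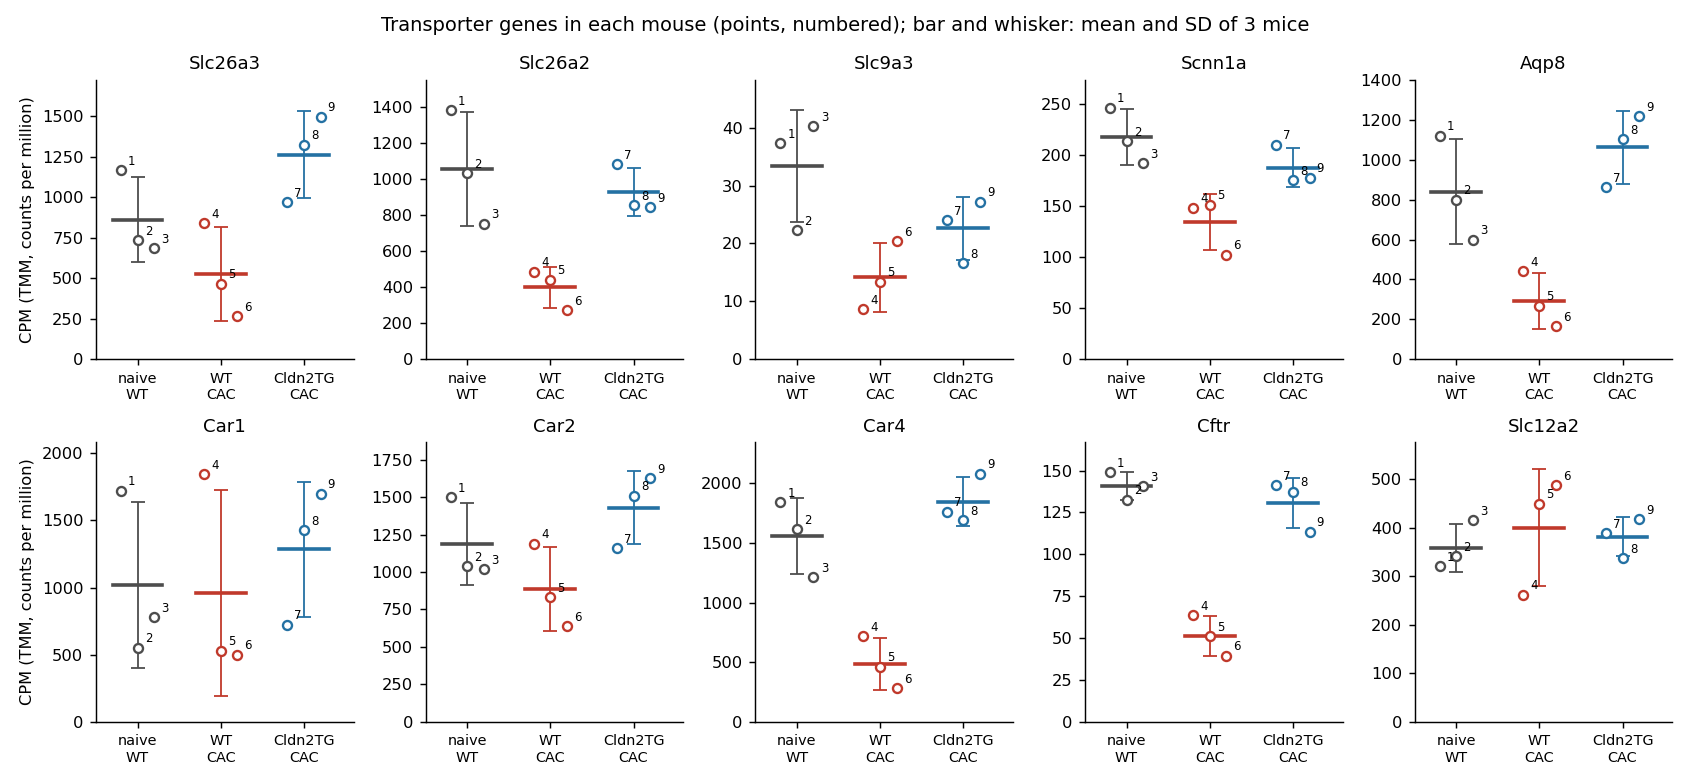
Level of the 10 genes in each mouse as CPM with TMM normalization (vertical axis, a separate scale from 0 for each gene), by group. Circles are mice, numbered 1 to 9, and bars with whiskers are the mean and SD of 3 mice; for *Aqp8*, *Car4*, *Slc26a2*, *Cftr* and *Scnn1a* the 3 WT CAC mice lie below all other mice.

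Among the absorptive exchangers, *Slc26a3* had 1166, 733 and 686 CPM in naive WT mice 1 to 3, 838, 466 and 266 CPM in WT CAC mice 4 to 6, and 967, 1324 and 1497 CPM in *Cldn2*TG CAC mice 7 to 9. The naive WT and WT CAC mice overlapped, since mouse 4 lay within the naive range, while all 3 *Cldn2*TG CAC mice were above all WT CAC mice. Its log2 fold change was -0.70 (SE, the standard error, 0.41, adjusted p = 0.290) for WT CAC against naive WT and 1.25 (SE 0.40, adjusted p = 0.104) for *Cldn2*TG CAC against WT CAC, so this exchanger, the main one for chloride in the colon, was called in neither. The first was -1.22 and called without mouse 4 (adjusted p = 0.0347), and -0.38 without mouse 6 (adjusted p = 0.510). The second difference was called by DESeq2 (adjusted p = 0.00309) and by edgeR without WT CAC mouse 4 (adjusted p = 0.00337), in fits whose log2 fold changes were 1.24 and 1.78.

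*Slc26a2* had 1381, 1033 and 751 CPM in naive WT mice, 484, 440 and 270.2 CPM in WT CAC mice, and 1083, 856 and 845 CPM in *Cldn2*TG CAC mice. The WT CAC mice were below every mouse of the other 2 groups. This sulfate carrier of the same family fell by 1.38 on the log2 scale (SE 0.28, adjusted p = 0.0218) in WT CAC mice, and it was 1.20 higher on that scale (SE 0.22, adjusted p = 0.0160) in *Cldn2*TG CAC than in WT CAC mice. Against naive WT, *Cldn2*TG CAC mice differed by a log2 fold change of -0.18 (SE 0.22, adjusted p = 0.649).

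*Slc9a3* was the lowest of the 10 genes, with 37.3, 22.2 and 40.3 CPM in naive WT mice, 8.58, 13.4 and 20.4 CPM in WT CAC mice, and 24.0, 16.6 and 27.2 CPM in *Cldn2*TG CAC mice. Each WT CAC mouse was below each naive WT mouse, by a narrow margin between mice 6 and 2, and the *Cldn2*TG CAC mice lay between and overlapped both groups. The log2 fold change for WT CAC against naive WT was -1.22 (SE 0.34), with an adjusted p-value of 0.0529 that just missed the threshold. DESeq2 called it (adjusted p = 0.00290), and so did edgeR with all 9 libraries in the fit (adjusted p = 0.0268) and without mouse 6 (adjusted p = 0.0353). For *Cldn2*TG CAC against WT CAC the log2 fold change was 0.66 (SE 0.32, adjusted p = 0.263).

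*Scnn1a* had 246, 214 and 192 CPM in naive WT mice, 148, 151 and 102 CPM in WT CAC mice, and 210.2, 175 and 178 CPM in *Cldn2*TG CAC mice. WT CAC mice were again the lowest with no overlap. The fall of this ENaC subunit was the smallest of the 5 that were called, at a log2 fold change of -0.67 (SE 0.17, adjusted p = 0.0377). Its level in *Cldn2*TG CAC mice exceeded that of WT CAC mice by 0.46 on the log2 scale (SE 0.17, adjusted p = 0.134), which was not called.

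*Aqp8* had 1122, 801 and 599 CPM in naive WT mice, 439.5, 269 and 165 CPM in WT CAC mice, and 864, 1103 and 1219.97 CPM in *Cldn2*TG CAC mice. The 3 WT CAC mice were below the other 6, and the *Cldn2*TG CAC mice reached or passed the upper part of the naive range. The RNA of this water channel was 2.84-fold lower in WT CAC than in naive WT mice (log2 fold change -1.51, SE 0.38, adjusted p = 0.0415). It was 3.59-fold higher in *Cldn2*TG CAC than in WT CAC mice (log2 fold change 1.84, SE 0.34, adjusted p = 0.0190), and the difference from naive WT mice was 0.34 (SE 0.24, adjusted p = 0.413).

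Of the carbonic anhydrases, *Car4* was called in both of the first 2 comparisons and *Car1* and *Car2* in neither, and the difference between them was not tested. Without mouse 4 *Car2* was called in both and *Car1* in the second. *Car4*, whose enzyme sits on the cell surface, had 1843, 1616 and 1211 CPM in naive WT mice, 716, 462 and 283 CPM in WT CAC mice, and 1763, 1692 and 2079.6 CPM in *Cldn2*TG CAC mice. The WT CAC mice were clear of both other groups, which overlapped. Its log2 fold change of -1.65 (SE 0.33, adjusted p = 0.0223) was the largest fall among the 10 genes, and its difference of 1.90 (SE 0.31, adjusted p = 0.0131), a 3.73-fold higher level in *Cldn2*TG CAC than in WT CAC mice, was also the largest of that comparison.

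*Car1*, a cytosolic enzyme, had 1723, 553 and 778 CPM in naive WT mice, 1844, 530.2 and 499.8 CPM in WT CAC mice, and 724, 1429 and 1699 CPM in *Cldn2*TG CAC mice. Every group held both high and low mice, and the CV within a group was 39.2% to 80.1%, the widest of the 10 genes in each group. The log2 fold changes were -0.06 (SE 0.64, adjusted p = 0.961) and 0.39 (SE 0.58, adjusted p = 0.780), and errors of this size leave room for changes as large as those of *Scnn1a*. The first ran from -0.97 without mouse 4 to 0.55 without mouse 1 (adjusted p = 0.237 and 0.618), and the second was 1.31 without mouse 4 (adjusted p = 0.0421).

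*Car2*, the other cytosolic enzyme, had 1500.2, 1038 and 1018 CPM in naive WT mice, 1188, 832 and 636 CPM in WT CAC mice, and 1157, 1508 and 1625 CPM in *Cldn2*TG CAC mice. Neighbouring groups overlapped in both comparisons, through mouse 4 and mouse 7. The log2 fold changes were -0.40 (SE 0.25, adjusted p = 0.315) for WT CAC against naive WT and 0.67 (SE 0.24, adjusted p = 0.123) for *Cldn2*TG CAC against WT CAC. DESeq2 called the second (adjusted p = 0.0419). Without mouse 4 they were -0.67 (adjusted p = 0.0476) and 0.95 (adjusted p = 0.00584).

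Of the 2 genes of secretion, *Cftr* was called in the first 2 comparisons and *Slc12a2* was not. *Cftr* had 149, 133 and 141 CPM in naive WT mice, 63.5, 51.0 and 39.5 CPM in WT CAC mice, and 141, 137 and 113 CPM in *Cldn2*TG CAC mice. The gap between the WT CAC mice and the rest was wide for this chloride channel and the naive mice agreed closely, with a CV of 5.81%. *Cftr* fell by 1.43 on the log2 scale in WT CAC mice (SE 0.17, adjusted p = 0.00633), was 1.32 higher in *Cldn2*TG CAC than in WT CAC mice (SE 0.19, adjusted p = 0.00821), and differed from naive WT mice by -0.10 (SE 0.11, adjusted p = 0.602). These were the smallest adjusted p-values of the 10 genes in the first 2 comparisons.

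*Slc12a2*, the chloride loader, had 321, 342 and 415 CPM in naive WT mice, 262, 450.3 and 488 CPM in WT CAC mice, and 389, 338 and 418 CPM in *Cldn2*TG CAC mice. The 3 groups overlapped throughout, and mice 5 and 6 were the highest of the 9. The log2 fold changes were 0.18 (SE 0.23, adjusted p = 0.622) and -0.09 (SE 0.22, adjusted p = 0.882), and the first was 0.41 without mouse 4 (adjusted p = 0.0642). Per length, as RPKM, the ratio of *Slc12a2* to *Cftr* was 3.05 ± 0.479 (SD, n = 3) in naive WT, 10.0 ± 4.91 (SD, n = 3) in WT CAC and 3.53 ± 0.760 (SD, n = 3) in *Cldn2*TG CAC mice. The lowest ratio of a WT CAC mouse, 4.92, was above the highest of a *Cldn2*TG CAC mouse, 4.38, and the exact permutation test (two-sided) gave p = 0.1, which 3 mice against 3 cannot go below; the change of *Cftr* alone is part of that ratio, and whether both genes changed unequally was not tested otherwise.

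**Figure D2:**
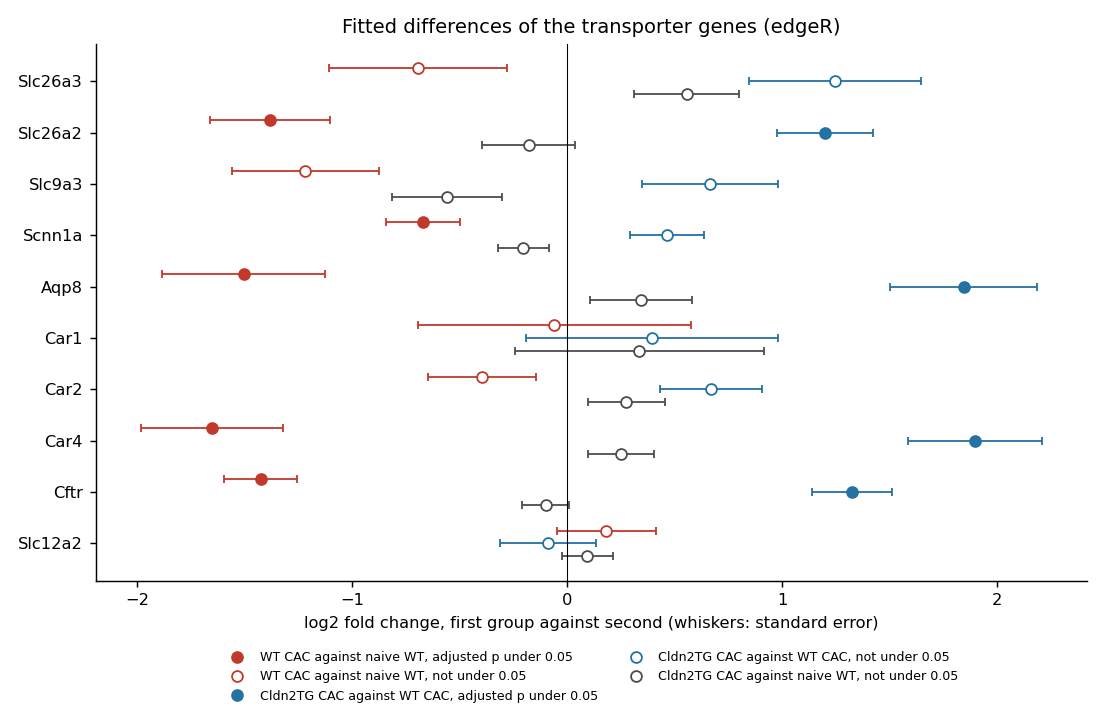
Fitted log2 fold change (horizontal axis) of each gene in the 3 comparisons, with whiskers of 1 standard error from edgeR's quasi-likelihood fit; filled points had an adjusted p-value under 0.05. The values for WT CAC against naive WT lie left of 0 for 9 of 10 genes, those for *Cldn2*TG CAC against WT CAC lie right of 0 for 9 of 10, and none is filled for *Cldn2*TG CAC against naive WT.

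Counted by overlap, 6 of the 10 genes were lower in every WT CAC mouse than in every naive WT mouse, against 20.3% of all genes tested, and the sixth beside the 5 called genes was *Slc9a3*. In *Cldn2*TG CAC against WT CAC mice 6 of 10 were higher without overlap, against 14.2% of all genes tested. These were the 4 called genes with *Slc26a3* and *Scnn1a*. Each such gene had p = 0.1 in the two-sided exact permutation test over 3 mice against 3. Between *Cldn2*TG CAC and naive WT mice all 10 genes overlapped, where 14.9% of all genes tested were higher and 16.3% lower without overlap. In that comparison edgeR called 0 of the 10 and gave 0 of them an unadjusted p-value under 0.05, voom called 0 of them, and DESeq2 called *Slc26a3* higher in *Cldn2*TG CAC mice (log2 fold change 0.56, adjusted p = 0.0492). With no filter on low counts edgeR called *Slc26a3* higher (adjusted p = 0.0128) and *Slc9a3* lower (adjusted p = 0.00150). *Slc26a3* was also called without mouse 1 (log2 fold change 0.84, adjusted p = 0.0265) and *Slc9a3* without mouse 2 (log2 fold change -0.78, adjusted p = 0.0386).

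Within the WT CAC group the mice kept an order. For 7 of the 10 genes (*Slc26a3*, *Slc26a2*, *Aqp8*, *Car1*, *Car2*, *Car4* and *Cftr*) mouse 4 was the highest and mouse 6 the lowest, and *Slc9a3* and *Slc12a2* had the opposite order, with mouse 6 highest and mouse 4 lowest. The summed level of 12 other genes of mature colonocytes (among them *Krt20*, *Muc3* and *Cyp2c55*) was 9275 CPM in mouse 4, 6828 in mouse 5 and 4628 in mouse 6. Much of that fall was *Muc3*, with 4913, 2525 and 1872 CPM, whereas *Krt20* had 998, 1264 and 1022 CPM. Of the 12 genes, 5 had the order of the sum, and mouse 6 was the lowest WT CAC mouse for 9. For 9 of the 10 genes the CV was largest in the WT CAC group, and *Slc26a2* was the exception. In *Cldn2*TG CAC mice, mouse 9 was the highest for 7 of 10 genes, and in naive WT mice, mouse 1, the one with *Xist*, was the highest for 8 of 10. The part of sex in these values was not tested.

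Which genes were called depended on the mice in the fit, among the 10 and over all genes. Without mouse 4, 7 genes were called lower in WT CAC than in naive WT mice (the 5 with *Slc26a3* and *Car2*), and 7 were called higher in *Cldn2*TG CAC than in WT CAC mice (the 4 with *Slc26a3*, *Car1* and *Car2*). Among all genes tested, that fit called 1839 of 15872 lower in the first comparison, where all 6 mice gave 1069 of 15437. In the second it called 919 of 15109 higher, where all 6 mice gave 326 of 14888. Without any one of mice 1, 2 and 5, 1 gene was called in the first comparison, and that was *Cftr*, which remained called in all 6 fits that left out a mouse (adjusted p-values of 0.000300 to 0.0360). The fits without mice 1, 2 and 5 called 243, 60 and 576 genes lower, of all 15915, 15947 and 15765 tested. The calls of *Scnn1a* and *Aqp8* in that comparison held in 1 of the 6 fits, the one without mouse 4, and their adjusted p-values reached 0.119 and 0.120. That of *Car4* held in 2 (up to 0.0857 without mouse 2) and that of *Slc26a2* in 3 (up to 0.0811 without mouse 2). In *Cldn2*TG CAC against WT CAC mice, *Cftr* was called in 5 of 6 fits and had an adjusted p of 0.0520 without mouse 8, where none of the 10 genes was called. That fit called 58 of all 15186 genes tested, 10 of them higher. *Car4* was called in 3 fits, and *Aqp8* and *Slc26a2* in 2, with adjusted p-values of at most 0.0841 in the others. No fit turned the direction of any of these 5 genes, and each such fit rests on 5 mice.

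**Figure D3:**
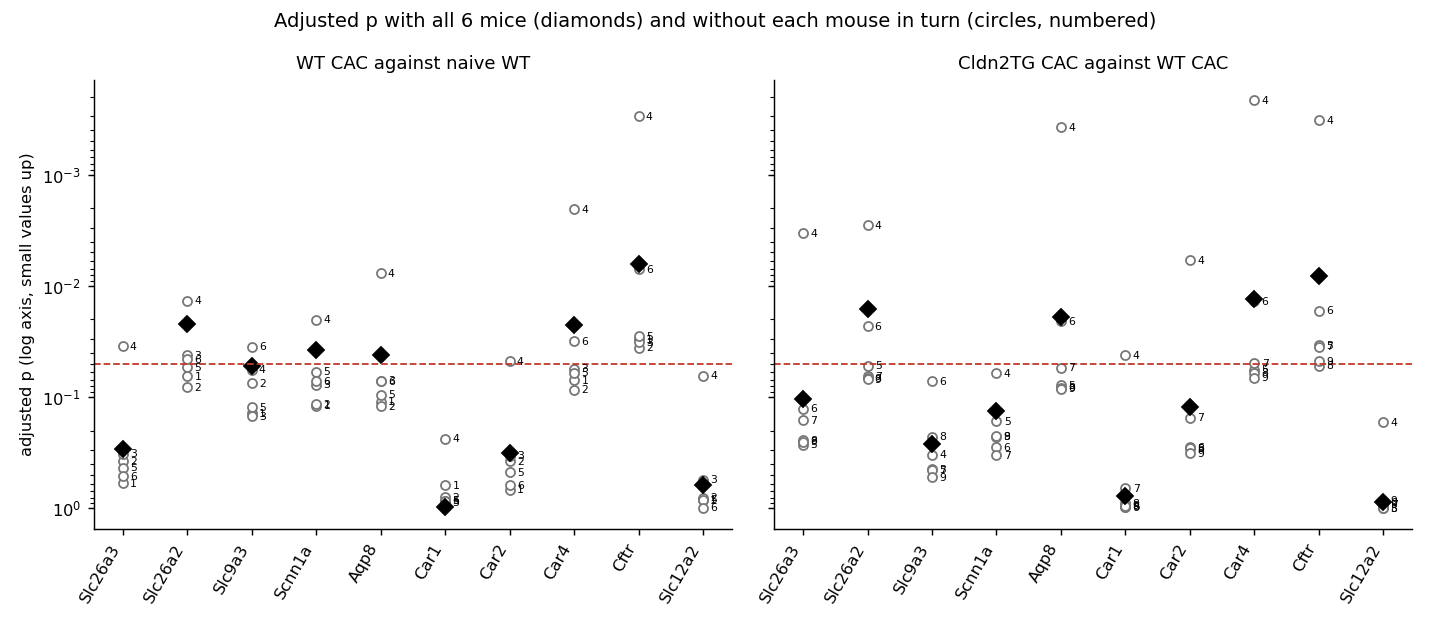
Adjusted p-value of each gene (vertical log axis, small values at the top) with all 6 mice of a comparison (diamonds) and without each mouse in turn (circles, with the number of the mouse left out); the dashed line is 0.05. *Cftr* stays above the line in all circles of the first panel, and the circles for mouse 4 lie highest for most genes.

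Compared per length as RPKM, the carbonic anhydrases and the water channel were the most abundant of the 10 in naive WT mice. *Car1* (816 ± 498 RPKM, SD, n = 3), *Car4* (792 ± 163 RPKM), *Aqp8* (532 ± 167 RPKM) and *Car2* (489 ± 113 RPKM) overlapped from each to the next in that order. They were followed, after a gap without overlap, by *Slc26a3* (135 ± 41.5 RPKM), *Slc26a2* (85.3 ± 25.5 RPKM), *Slc12a2* (55.1 ± 7.63 RPKM) and *Scnn1a* (52.6 ± 6.62 RPKM). *Cftr* (18.1 ± 1.05 RPKM) and *Slc9a3* (13.4 ± 3.89 RPKM) were the lowest, and did not overlap with each other or with *Scnn1a*. In WT CAC mice *Car4* dropped to 3rd place at 248 ± 110 RPKM and *Slc26a2* from 6th to 8th at 32.2 ± 9.14 RPKM, below *Slc12a2* and *Scnn1a*, while in *Cldn2*TG CAC mice the 10 genes stood in the same order as in naive WT mice. Within the WT CAC mice *Car4* overlapped with *Car2* (366 ± 116 RPKM), the next above it. *Slc26a2* overlapped with *Scnn1a* (32.4 ± 6.64 RPKM), so the order within these pairs is not settled.

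The 10 genes lie on 7 chromosomes. In GRCm38 coordinates of the count table, *Slc26a3* spans chromosome 12 from 31390871 to 31473917, *Slc9a3* chromosome 13 from 74121515 to 74166064, *Aqp8* chromosome 7 from 123462291 to 123468004 and *Car4* chromosome 11 from 84957786 to 84966044. Chromosome 6 holds *Cftr* (18170687 to 18322768) and *Scnn1a* (125320659 to 125344943), chromosome 18 holds *Slc12a2* (57878678 to 57946821) and *Slc26a2* (61192919 to 61211612), and chromosome 3 holds the neighbours *Car1* (14766216 to 14808368) and *Car2* (14886273 to 14900770). Levels cover all exons of a gene in the table's annotation, and the model of *Slc9a3*, with 2490 exon bases, is the only one of the 10 whose bounds differ from those in GENCODE M21. *Cftr* shares 129 exon bases with an antisense gene, *Gm15592*, which had at most 10 counts in any mouse, and no other member shares an exon base with another gene of the table.

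By the likeness of its pattern over the 9 mice, the gene nearest to *Aqp8* among 9388 with a mean of at least 10 CPM was *Car4*, with a root mean square difference of 0.15 in centred log2 CPM, where the median over all genes was 0.94. The next were *Pck1*, *Selenbp2*, *Naaladl1* and *Nxpe2*, at 0.28 to 0.32. *Slc26a3* stood eighth and *Slc26a2* 24th on the list of *Aqp8*. The nearest genes to *Slc26a3* were *Gstt1*, *Slc25a34*, *Tnni1*, *Syn2* and *Fam189a2*, at 0.21 to 0.27, against a median of 0.74. *Car2* was 18th and *Aqp8* 19th, whereas *Slc12a2* was 8338th and *Slc9a3* 8211th on that list. These distances describe the pattern of 9 mice and carry no test.

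The related genes were taken from 9 lists with 77 genes, of which 66 were tested in each of the first 2 comparisons. In WT CAC against naive WT mice 9 of them fell and 7 rose, 11 rose and 4 fell in *Cldn2*TG CAC against WT CAC mice, and 7 rose and 1 fell of 65 tested in *Cldn2*TG CAC against naive WT mice. The split in the last 2 comparisons depends on the scaling, because scaling to 12 epithelial genes moves the median log2 fold change of all genes to -0.12 and -0.14 there: it gave 7 higher and 5 lower for *Cldn2*TG CAC against WT CAC, and 2 higher and 7 lower for *Cldn2*TG CAC against naive WT. As shares of the genes tested, 13.6% of the related genes fell and 10.6% rose in WT CAC against naive WT mice, beside 6.92% and 8.04% of all genes. Between *Cldn2*TG CAC and WT CAC mice 16.7% were higher in *Cldn2*TG CAC and 6.06% lower, beside 2.19% and 7.35% of all genes, and scaled to the epithelial genes 10.6% and 7.58%, beside 1.41% and 8.52%. The third comparison, with naive WT mice, had 10.8% higher and 1.54% lower, beside 3.92% and 6.07%, and with that scaling 3.08% and 10.8%, beside 1.26% and 9.20%. The median log2 fold changes of the 66 were -0.19 and 0.23. Of all genes tested in the first 2 comparisons, 5032 of 15437 and 3498 of 14888 had an unadjusted p under 0.05 in edgeR. DESeq2 called 3220 and 2072 of them. Called in every fit that left out a mouse were 3 of the 16 called in the first comparison (*Scnn1b*, *Aqp4* and *Slc6a14*), 0 of 15 in the second and 1 of 8 in the third (*Kcnn4*).

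In the ENaC list the alpha and beta subunits went opposite ways in WT CAC mice. While *Scnn1a* fell, *Scnn1b*, the beta subunit, rose from 9.60, 13.5 and 8.69 CPM in naive WT mice to 23.8, 32.1 and 23.1 CPM in WT CAC mice (log2 fold change 1.34, SE 0.21, adjusted p = 0.0115), and it was called in all 6 fits that left out a mouse. *Cldn2*TG CAC mice had 12.3, 9.22 and 28.0 CPM, and mouse 9 reached the WT CAC range. As RPKM, the ratio of *Scnn1b* to *Scnn1a* was 0.0770 ± 0.0195 in naive WT, 0.313 ± 0.0543 in WT CAC and 0.140 ± 0.0926 in *Cldn2*TG CAC mice (SD, n = 3 each), without overlap between WT CAC and either other group (two-sided exact permutation test, p = 0.1 for each, the smallest possible). *Scnn1g*, the gamma subunit, had 8.71, 6.68 and 3.56 CPM in naive WT, 9.60, 39.4 and 21.4 CPM in WT CAC and 4.96, 3.55 and 12.7 CPM in *Cldn2*TG CAC mice. The log2 fold changes of *Scnn1g* were 1.92 (adjusted p = 0.0560) for WT CAC against naive WT and -1.76 (adjusted p = 0.154) for *Cldn2*TG CAC against WT CAC. The WT CAC mice lay above the naive WT mice and overlapped with the *Cldn2*TG CAC mice. The ratio of *Scnn1g* to *Scnn1a* as RPKM was 0.0392 ± 0.0121, 0.246 ± 0.140 and 0.0531 ± 0.0396 in the 3 groups (SD, n = 3 each) and overlapped in the same way (two-sided exact permutation test, p = 0.1 and 0.2). *Hsd11b2*, the enzyme that keeps glucocorticoids off the aldosterone receptor, fell by 0.64 on the log2 scale in WT CAC mice (adjusted p = 0.0320). *Prss8*, a protease that activates ENaC, fell by 0.56 (adjusted p = 0.0379) and was 0.57 higher in *Cldn2*TG CAC than in WT CAC mice (adjusted p = 0.0462). Each of these calls of *Hsd11b2* and *Prss8* held in 1 of 6 fits that left out a mouse, the one without mouse 4, with adjusted p-values of up to 0.124 for *Hsd11b2* and 0.144 and 0.157 for *Prss8*. The other 5 of the 8 genes, *Scnn1g* included, were called by edgeR in neither comparison. DESeq2 called 4 of the 8 in the first and 1 in the second.

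Among aquaporins, *Aqp4*, a water channel of the basolateral side, moved with *Aqp8*. It had 396, 332 and 566 CPM in naive WT mice, 167, 158 and 159 CPM in WT CAC mice, and 255, 292 and 295 CPM in *Cldn2*TG CAC mice, and the 3 groups did not overlap. Its log2 fold change was -1.39 (SE 0.19, adjusted p = 0.00806) for WT CAC against naive WT, called in all 6 fits that left out a mouse, and 0.77 (SE 0.12, adjusted p = 0.00881) for *Cldn2*TG CAC against WT CAC. Unlike the called members, whose *Cldn2*TG CAC mice overlapped with naive WT mice, *Aqp4* stayed below the naive range, with a log2 fold change of -0.62 (adjusted p = 0.0613). EdgeR called this difference with library size alone (-0.74, adjusted p = 0.0466) and scaled to 12 epithelial genes (-0.76, adjusted p = 0.0192). It did not with median-of-ratios (adjusted p = 0.0615) or upper-quartile factors (adjusted p = 0.0655). The other 2 tested aquaporins were called by edgeR or DESeq2 in neither of the first 2 comparisons.

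Cotransport of short-chain fatty acids and other nutrients with sodium or protons held the most called genes of the 9 lists in the first 2 comparisons, 5 and 4, and 2 in *Cldn2*TG CAC against naive WT mice. *Slc6a14*, an amino acid transporter, had 1013, 886 and 865 CPM in naive WT, 339, 295 and 252 CPM in WT CAC and 656, 724 and 671 CPM in *Cldn2*TG CAC mice, with no overlap among the 3 groups. It fell by 1.62 on the log2 scale in WT CAC mice (SE 0.15, adjusted p = 0.00239), was 1.19 higher in *Cldn2*TG CAC than in WT CAC mice (SE 0.14, adjusted p = 0.00652) and remained 0.43 below naive WT mice (log2 fold change -0.43, adjusted p = 0.0221). *Slc5a8*, a sodium-coupled carrier of short-chain fatty acids, fell by 1.11 (adjusted p = 0.0116) and was 1.04 higher in *Cldn2*TG CAC mice (adjusted p = 0.0108). The further 2 called genes of the list that fell were *Slc16a1* and *Slc5a1*, both also called higher in *Cldn2*TG CAC than in WT CAC mice. *Slc16a3*, a lactate exporter, rose by 2.61 (SE 0.32, adjusted p = 0.00763) in WT CAC mice. *Bsg*, the chaperone of the carriers of *Slc16a1* and *Slc16a3* and the most abundant gene of the list, had log2 fold changes of -0.00118 and 0.09, with adjusted p-values of 0.996 and 0.785.

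The chloride channel list held genes that went both ways. *Clca1*, a secreted goblet cell protein that modulates calcium-activated chloride channels, fell by 0.96 on the log2 scale (adjusted p = 0.0173) and was 0.98 higher in *Cldn2*TG CAC than in WT CAC mice (adjusted p = 0.0372). *Clca4b*, of the same family, had 19.9, 7.98 and 33.3 CPM in naive WT mice and 192, 1295 and 1299 CPM in WT CAC mice, while *Cldn2*TG CAC mice had 34.1, 56.4 and 60.1 CPM. Its log2 fold changes were 5.53 (SE 0.92, adjusted p = 0.0170) and -4.23 (SE 0.75, adjusted p = 0.0212), and reads may be split between it and its near copy *Clca4a*. *Lrrc26*, a subunit of potassium channels, rose by 0.54 (adjusted p = 0.0256) and was lower by 0.76 in *Cldn2*TG CAC than in WT CAC mice (log2 fold change -0.76, adjusted p = 0.00999).

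Among the potassium channels, *Kcnq1*, a potassium channel that keeps the cell negative during chloride secretion, was 0.55 higher on the log2 scale in *Cldn2*TG CAC than in WT CAC mice (adjusted p = 0.0287) and 0.48 higher than in naive WT mice (adjusted p = 0.0124). *Kcnn4* and *Kcne3*, named after their values were seen, were also called higher in *Cldn2*TG CAC than in naive WT mice, by 0.60 (adjusted p = 0.0122) and 0.53 (adjusted p = 0.0223); KCNN4 is a potassium channel and KCNE3 the partner of KCNQ1. *Fxyd3*, of the FXYD family of ion transport regulators, rose by 0.81 in WT CAC mice (adjusted p = 0.0312). Scaled to the epithelial genes, *Kcnq1* was called in neither of these comparisons (adjusted p = 0.136 against WT CAC and 0.0619 against naive WT), and *Kcnn4* and *Kcne3* remained higher than in naive WT mice by 0.46 (adjusted p = 0.0398) and 0.38 (adjusted p = 0.0479). In that comparison the markers of other cells differed too: 6 of 6 genes of enteric neurons and glia, 5 of 6 endothelial and 3 of 7 smooth muscle genes were called lower and 2 of 12 epithelial genes higher in *Cldn2*TG CAC mice. Their part in these differences was not tested. Scaled to the epithelial genes, the higher level of *Prss8* against WT CAC mice was also lost (adjusted p = 0.125), as was that of *Slc5a1* (adjusted p = 0.118). With library size alone, median-of-ratios and upper-quartile factors, in that order, *Prss8* had edgeR adjusted p-values of 0.0781, 0.0515 and 0.0609. *Slc5a1* had 0.081, 0.0453 and 0.0524, and *Kcnq1* against WT CAC mice had 0.0648, 0.0275 and 0.0324.

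In the remaining lists few genes passed the test. None of the 8 tested genes of sodium-proton exchange and its scaffolds was called by edgeR in either comparison (0 and 3 at an unadjusted p under 0.05, 0 and 2 called by DESeq2); *Slc9a3r1*, the NHERF1 scaffold and the most abundant of them, had log2 fold changes of -0.28 (adjusted p = 0.212) and 0.57 (adjusted p = 0.0584). Among 6 tested exchangers of chloride and bicarbonate, *Slc4a4*, the basolateral sodium bicarbonate cotransporter, was 1.18 higher on the log2 scale in *Cldn2*TG CAC than in WT CAC mice (adjusted p = 0.0455). The call of *Slc4a4* was lost with library size alone (adjusted p = 0.0523) and with upper-quartile factors (adjusted p = 0.0552), and held in 1 of 6 fits that left out a mouse, the one without mouse 4. In WT CAC against naive WT mice its log2 fold change was -0.98 (adjusted p = 0.0839), called without mouse 4 (adjusted p = 0.00609). *Slc4a2*, the most abundant, had log2 fold changes of -0.28 (adjusted p = 0.189) and 0.24 (adjusted p = 0.436). Of 7 other carbonic anhydrases edgeR called 1 in the first comparison and 0 in the second (4 and 2 at an unadjusted p under 0.05, 2 and 1 called by DESeq2, 0 by voom). The 1 was *Car5b*, a mitochondrial enzyme, with a log2 fold change of 1.36 in WT CAC mice (adjusted p = 0.0499), called in 1 of 6 fits that left out a mouse, the one without mouse 4 (adjusted p-values of up to 0.164). *Car9*, the most abundant, had log2 fold changes of 0.49 (adjusted p = 0.0536) and -0.13 (adjusted p = 0.684), and was 0.36 higher in *Cldn2*TG CAC than in naive WT mice (adjusted p = 0.0311), a call that held in 0 of 6 such fits. *Guca2a* and *Guca2b* encode guanylin and uroguanylin, the gut peptides that raise cyclic GMP and open CFTR. *Guca2a* had log2 fold changes of -0.80 (adjusted p = 0.251) and 1.06 (adjusted p = 0.201), and was called in both comparisons without mouse 4 (adjusted p = 0.00171 and 0.000323). *Guca2b* rose by 0.84 in WT CAC mice (adjusted p = 0.0160) and was lower by 0.67 in *Cldn2*TG CAC than in WT CAC mice (log2 fold change -0.67, adjusted p = 0.0455). *Pde3a*, which breaks down cyclic nucleotides, fell by 0.67 (adjusted p = 0.0138) and was 0.66 higher (adjusted p = 0.0168). *Prkg2*, the kinase that passes the cyclic GMP signal to CFTR, had 0.149, 0.251 and 3.82 CPM in naive WT, 3.35, 17.3 and 51.8 CPM in WT CAC and 0.896, 0.355 and 0.222 CPM in *Cldn2*TG CAC mice. Mouse 3 lay above mouse 4, so naive WT and WT CAC mice overlapped, and the log2 fold change of 4.08 for WT CAC against naive WT was not called (SE 1.33, adjusted p = 0.0860). For *Cldn2*TG CAC against WT CAC it was -5.63 (SE 1.17, adjusted p = 0.0329), called in 2 of 6 fits that left out a mouse, those without mouse 4 and mouse 6. The *Cldn2*TG CAC mice had 13, 7 and 3 counts, and *Prkg2* passed the low-count filter through the WT CAC mice, where it is high. Nothing is drawn from this call or its size.

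**Figure D4:**
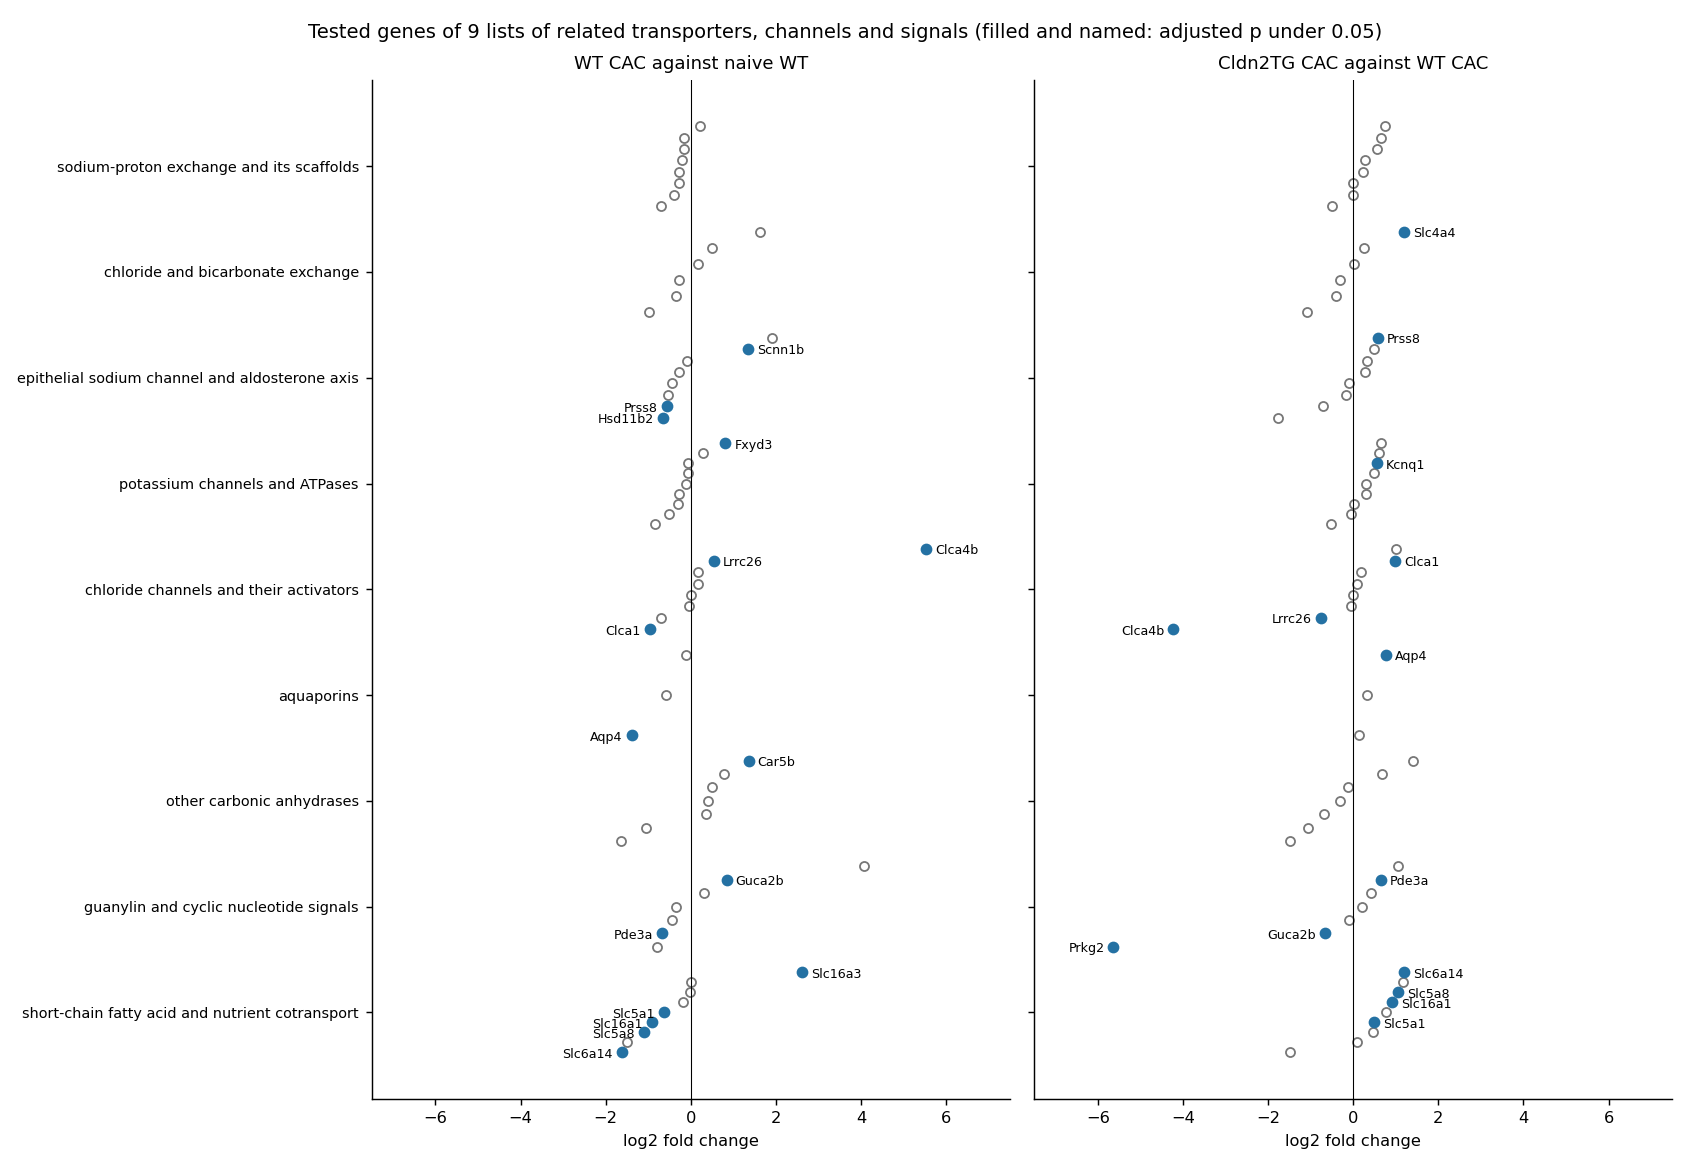
Log2 fold change (horizontal axis) of the tested genes of 9 lists of related genes (1 listed gene is not shown), WT CAC against naive WT on the left and *Cldn2*TG CAC against WT CAC on the right; filled and named points had an adjusted p-value under 0.05. *Aqp4*, *Slc6a14*, *Slc5a8*, *Slc16a1*, *Slc5a1*, *Clca1*, *Pde3a* and *Prss8* are filled left of 0 in the first panel and right of 0 in the second.

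Markers of cell types were read beside these values, since in bulk colon RNA fewer cells of a type and less RNA per cell cannot be told apart. Of all genes tested in the first 2 comparisons, 5032 of 15437 and 3498 of 14888 had an unadjusted p under 0.05 in edgeR. DESeq2 called 3220 and 2072 of them, and voom 2115 and 1349. Of 12 epithelial genes, 0 were called by edgeR in either of the first 2 comparisons (3 and 2 at an unadjusted p under 0.05, 2 and 0 called by DESeq2, none by voom), and 2 of 12 (*Krt8* and *Cldn7*) were higher in *Cldn2*TG CAC than in naive WT mice. Their sum was 23456 to 24812 CPM in naive WT, 22886 to 29232.5 CPM in WT CAC and 25165 to 29970.0 CPM in *Cldn2*TG CAC mice. Scaled to those epithelial genes, the log2 fold changes of *Cftr*, *Car4*, *Aqp8* and *Slc26a2* were -1.45, -1.69, -1.55 and -1.42 in WT CAC against naive WT mice and 1.22, 1.79, 1.73 and 1.10 in *Cldn2*TG CAC against WT CAC mice, all still called. Of 11 tested genes of mature colonocytes outside the 10, 1 rose (*Slc51a*) and 1 fell (*Tmigd1*) in WT CAC mice. *Slc51a* had 1, 1 and 2 counts in naive WT, 14, 21 and 11 in WT CAC and 1, 2 and 1 in *Cldn2*TG CAC mice. It passed the low-count filter only through the WT CAC mice, where it is high, so nothing is drawn from its calls. Of the 11, 0 were called higher in *Cldn2*TG CAC than in WT CAC mice and 1 (*Slc51a*) lower by edgeR (3 at an unadjusted p under 0.05, 3 called by DESeq2 and 1 by voom), and 1 of 10 (*Tmigd1*) was lower in *Cldn2*TG CAC than in naive WT mice. The sum of the list was 7280 to 8247 CPM in naive WT, 4628 to 9275 CPM in WT CAC and 8333 to 10407 CPM in *Cldn2*TG CAC mice. Leukocyte genes rose in WT CAC mice (4 of 7, *Ptprc*, *Lyz2*, *Csf1r* and *S100a8*) and 4 of 6 were lower in *Cldn2*TG CAC than in WT CAC mice, with sums of 42.1 to 91.1, 110.7 to 215 and 22.4 to 51.1 CPM in the 3 groups in that same order. Endothelial genes, which bear on *Car4* because capillaries of several organs express it, were called lower in *Cldn2*TG CAC than in WT CAC mice (4 of 6) and than in naive WT mice (5 of 6), with sums of 55.1 to 63.0, 54.8 to 70.7 and 22.4 to 29.1 CPM in the 3 groups.

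Fibroblast genes (2 of 6 lower in *Cldn2*TG CAC than in WT CAC mice and 1 of 6 than in naive WT mice) summed to 292 to 422, 446 to 1119 and 181 to 260.4 CPM in the 3 groups. In WT CAC against naive WT mice edgeR called 0 of the 6 fibroblast genes, but all 6 log2 fold changes were above 0, 4 had an unadjusted p under 0.05, DESeq2 called 3 and voom 1. Of all 15437 genes tested in that comparison, 5032 had an unadjusted p under 0.05 in edgeR, DESeq2 called 3220 and voom 2115. Smooth muscle genes (0 of 7 called by edgeR in the first 2 comparisons, 1 and 0 at an unadjusted p under 0.05 and 1 and 0 by DESeq2, and 3 lower in *Cldn2*TG CAC than in naive WT mice) summed to 2010 to 4064, 1064 to 2953 and 972 to 1499.7 CPM. Genes of enteric neurons and glia (2 of 6 lower in WT CAC and 6 of 6 in *Cldn2*TG CAC than in naive WT mice) summed to 12.6 to 20.5, 2.65 to 9.45 and 3.55 to 5.24 CPM. Goblet cell genes (0 of 6 called by edgeR in either, 1 and 0 at an unadjusted p under 0.05 and 0 by DESeq2) summed to 9837 to 13281, 8170.4 to 12044 and 9411 to 15189 CPM. Red blood cells carry CAR1 and CAR2, and their 6 markers summed to at most 11.5 CPM in any mouse. Of 6 proliferation genes 1, *Mki67*, fell in WT CAC mice, where all 6 log2 fold changes were below 0 and 4 had an unadjusted p under 0.05, and 1, *Top2a*, was lower in *Cldn2*TG CAC than in naive WT mice. Of the *Hox* genes that mark position along the colon, 1 of 8 tested (*Hoxd10*) was called higher in WT CAC than in naive WT mice, 0 of 7 were called by edgeR or DESeq2, or reached an unadjusted p under 0.05, between *Cldn2*TG CAC and WT CAC mice, and 3 of 8 (*Hoxd10*, *Hoxd11* and *Hoxd13*) were higher in *Cldn2*TG CAC than in naive WT mice. The part of leukocytes, endothelium, stroma, enteric neurons and glia and the sampled position in the differences of the 10 genes was not tested.

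**Figure D5:**
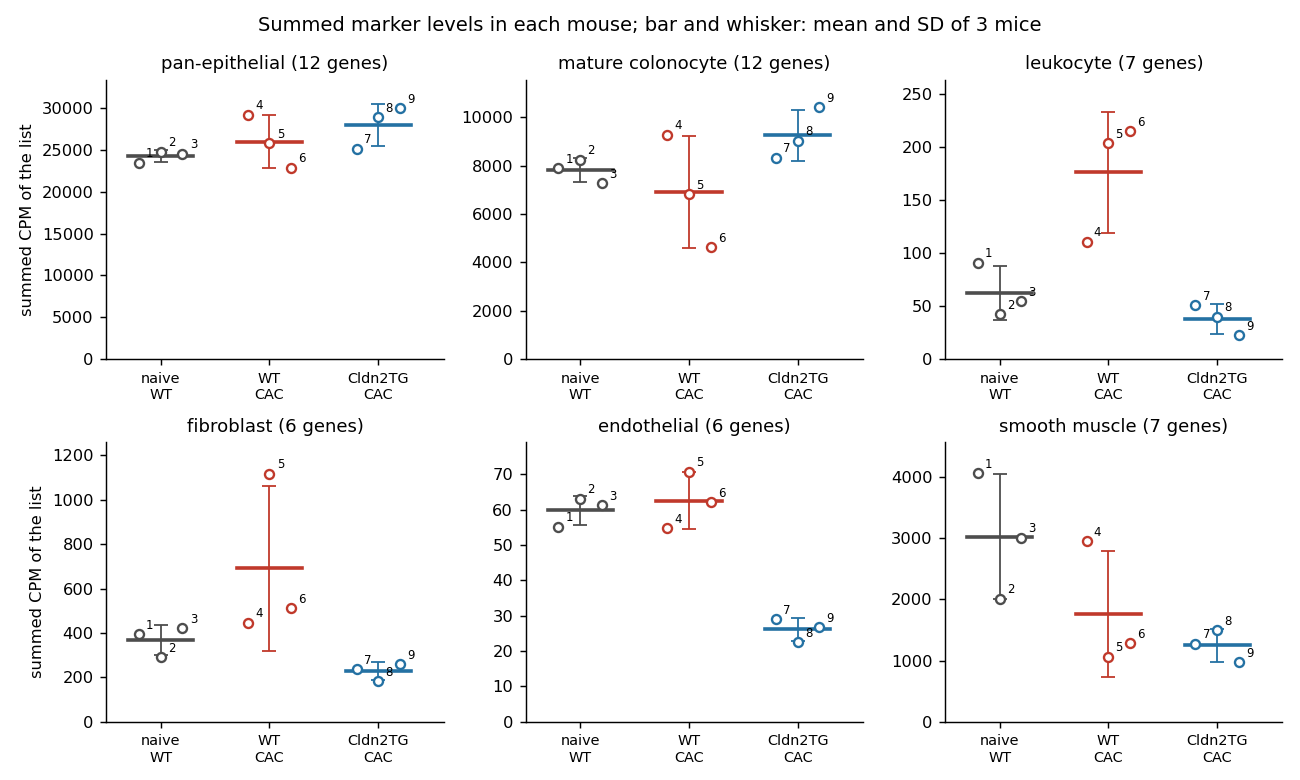
Summed CPM of 6 marker lists in each mouse (vertical axis, a separate scale from 0 for each list), with the mice numbered and the mean and SD of 3 mice as bars and whiskers. The epithelial sums of WT CAC mice overlap with those of both other groups, and those of *Cldn2*TG CAC mice (25165 to 29970.0 CPM) lie above those of naive WT mice (23456 to 24812 CPM). The leukocyte sums are highest in WT CAC mice.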

How the data were processed

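Colon RNA of 9 mice was sequenced on a NovaSeq6000, each library in 2 lanes. The deposited table holds the authors' whole-number counts per gene for 47729 genes and 18 lane columns, without normalization. The submitters' processing notes name HISAT2, featureCounts, Subread and GRCm38, whereas the paper's methods name TopHat2 as the mapper; versions, strand setting and annotation release are not given in the sources used here. Groups came from the genotype and treatment labels; the protocol text names AOM and DSS under the control samples too, so the treatment label decided. The table has a gene length column, which gave RPKM. GENCODE M21 held 47224 of the identifiers, with their symbols, and 40736 genes had the same start and end there.

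Lanes were compared by chi-square on genes with at least 20 counts (0.995 to 1.06 per degree of freedom between lanes, 16.8 to 66.3 between mice of a group) and added up. Each comparison was fitted on its 6 libraries with edgeR 4.0.16 (R 4.3.3): TMM normalization, a low-count filter by filterByExpr (at least 10 counts, and 15 in total) and robust quasi-likelihood testing, two-sided, with Benjamini-Hochberg adjustment over all genes tested. The biological coefficient of variation was 0.218, 0.217 and 0.149 for WT CAC against naive WT, *Cldn2*TG CAC against WT CAC and *Cldn2*TG CAC against naive WT. Standard errors were derived from the test statistic. Single values had two-sided exact permutation tests. Intervals of counting error were not needed at these levels; depth limits genes near 3 counts only. Alternatives were DESeq2 1.42.0, voom of limma 3.58.1 with a spread for each group, 4 other scalings, 2 other filters, each lane alone, all 9 libraries in the fit, a fold threshold and each library left out in turn. The scripts were tested on simulated data.

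The 10 genes, the 9 lists of related genes and the 11 marker lists were chosen with earlier results of these data known. Named were the 10 genes, *Cldn2*, of each related list the gene with the highest mean RPKM and up to 3 called genes with the smallest adjusted p in the first 2 comparisons, and the 5 genes most like *Slc26a3* and *Aqp8*; others are marked or named among counts. For 1 listed gene, included in the counts, values are not reported here. Tables and figures used matplotlib 3.10.9, pandas 2.3.3 and numpy 2.4.6 in Python 3.11.15.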

Additional observations from a re-analysis of the deposited data

How the results depend on the processing

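No paired analysis was made, because no pairing of mice between groups is given in the sources used here. The paper states that littermate controls were used, but which mice were littermates is not given. For WT CAC against naive WT, 5 of the 10 genes were called, 3 with no filter on low counts, and 1 to 7 when a library was left out. For *Cldn2*TG CAC against WT CAC, 4 were called, and 0 to 7 when a library was left out. For *Cldn2*TG CAC against naive WT, 0 were called, 1 with DESeq2, 2 with no filter, and 0 to 1 when a library was left out. Of the related genes, 16 were called for WT CAC against naive WT, 7 at a log2 fold change of at least 1, and 3 to 28 when a library was left out. For *Cldn2*TG CAC against WT CAC, 15 were called, 25 with DESeq2, 9 with at least 10 counts in every library, 5 at a log2 fold change of at least 1, and 0 to 26 when a library was left out. For *Cldn2*TG CAC against naive WT, 8 were called, 19 with no filter, 2 with all 9 libraries in the fit, 1 at a log2 fold change of at least 1, and 1 to 5 when a library was left out. The lowest counts for the first 2 comparisons came without library 2 and library 8 (for the 10 genes in the first also without libraries 1 and 5) and the highest without library 4. Calls over all genes moved too. In the first comparison 135 genes were called without library 2 and 4080 without library 4. In the second 58 were called without library 8 and 2894 without library 4. A fit without 1 library has fewer samples, and the further cause was not tested. Among the fits that kept all libraries, a called difference of a member was lost in 4: *Aqp8* (adjusted p = 0.143) and *Car4* (adjusted p = 0.0566) in WT CAC against naive WT with no filter, *Aqp8* there with lane 2 alone (adjusted p = 0.0513), and *Aqp8* in *Cldn2*TG CAC against WT CAC with no filter (adjusted p = 0.0718). No called difference of a member changed direction under any alternative. Of all genes called for *Cldn2*TG CAC against naive WT, 39.2% were higher, against 17.4% with library size alone and 12.0% when scaled to epithelial genes. At this depth counting error is small for the 10 genes, and 3 mice a group limit the precision.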
